A study of Mus musculus with 3 samples.

Results

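The 8 genes described here encode actins, actin-binding proteins and a myosin light chain of the contractile filaments of smooth muscle cells and myofibroblasts. They are Acta2, Tagln, Myl9, Cnn1, Actg2, Cald1, Tpm1 and Tpm2. They were taken by symbol, 8 of the 31053 genes in the count files, and were followed in the stromal cells of day 5 subcutaneous masses from 6- to 8-week-old female CD-1 mice. Each of the 3 groups gave 1 single-cell library. Matrigel-only masses came from Matrigel without rhBMP2 in mice that received no drug or vehicle. Vehicle and Palo masses came from Matrigel mixed with rhBMP2, the bone morphogenetic protein that starts ectopic cartilage and bone, in mice dosed with corn oil/DMSO or with palovarotene, a retinoic acid receptor gamma agonist, at 4 mg/kg a day. Vehicle thus differed from Matrigel-only in both the rhBMP2 and the oral vehicle. Each group comprised 6 masses by the legends, with 1 library per group, and the number of mice behind a library is not given in the sources used here.

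A cell was called stromal when Col1a1, Col1a2, Col3a1, Dcn and Lum together made up at least 1% of its unique molecular identifiers (UMIs), the tags that each stand for 1 captured transcript. This kept 2085 of 8728 Matrigel-only cells, 1373 of 5478 Vehicle cells and 1184 of 7297 Palo cells. All 10 other stromal genes examined, among them Pdgfra and Prrx1, had a higher level in these cells than in macrophage-marker cells in each library. Their median depth was 9082, 17114 and 12955 UMIs in Matrigel-only, Vehicle and Palo, so shares of cells were computed after every cell was thinned at random to 3100 UMIs. Thinning left 1878, 1303 and 1130 cells. Pairs of libraries had 11 to 21 cell barcodes in common, of which 1 belonged to stromal cells of both. The stromal cells were not all alike: Acan, which encodes the cartilage proteoglycan aggrecan, had at least 1 UMI in 779 Vehicle stromal cells, in 1 Matrigel-only cell and in 4 Palo cells. With 1 library per group no difference between groups had a replicate check and none was tested. The 95% intervals given below are exact Poisson intervals for levels and exact binomial intervals for shares and ratios, and they cover counting error only.

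In contracting cells, bundles of actin slide along myosin. Acta2 and Actg2 are the smooth muscle actins, Myl9 is a regulatory light chain of myosin, Tpm1 and Tpm2 are tropomyosins that lie along the actin filament, and Tagln, Cnn1 and Cald1 (transgelin, calponin 1 and caldesmon 1) bind actin and tune its contact with myosin. Tpm1 and Cald1 are also made in many non-muscle cells, whereas Cnn1 and Actg2 are more restricted to smooth muscle. Fibroblasts take up part of this program, with Acta2 as the usual marker, when they become myofibroblasts in wounds and in stiff tissue. Many of the genes are driven by serum response factor, which binds a short A/T-rich element called the CArG box, together with cofactors such as myocardin.

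Promoter windows reaching from 250 bases before to 50 bases after the transcription start were at hand for 6 of the 8 genes (RefSeq, GRCm38.p6), and not for Tagln or Actg2. They were searched for the CArG box, a palindromic form read the same on both strands: a pair of C, 6 bases that are all A or T, and a pair of G. Myl9 was the 1 gene of these 6 with an exact match, and 1.63% of all 32851 windows held one. When 1 of the 6 inner bases was allowed to be C or G, Myl9 and Acta2 held 2 matches each. Of all windows 9.98% held such a match and 0.822% at least 2. Acta2 and Myl9 are shown because both carried pairs of such elements, which are in capitals. In Acta2 (chr19:34255324-34255623, minus strand) the matches began 84 and 34 bases before the annotated start. In Myl9 (chr2:156775214-156775513, plus strand) they began 161 and 99 bases before its annotated start, the first being the exact one. Whether transcription begins at these annotated starts was not examined.
Acta2: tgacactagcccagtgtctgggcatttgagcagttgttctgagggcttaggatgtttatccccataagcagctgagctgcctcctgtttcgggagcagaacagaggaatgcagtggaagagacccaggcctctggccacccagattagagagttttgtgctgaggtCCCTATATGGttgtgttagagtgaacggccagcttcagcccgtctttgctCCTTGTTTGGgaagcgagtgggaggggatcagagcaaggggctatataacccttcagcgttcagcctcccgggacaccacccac
Myl9: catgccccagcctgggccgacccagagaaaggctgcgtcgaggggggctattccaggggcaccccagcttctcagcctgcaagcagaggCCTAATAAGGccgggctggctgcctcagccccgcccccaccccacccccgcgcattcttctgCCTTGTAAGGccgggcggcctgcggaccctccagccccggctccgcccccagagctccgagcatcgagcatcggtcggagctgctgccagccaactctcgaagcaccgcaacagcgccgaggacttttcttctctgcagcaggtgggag
No match was found in the windows of Cnn1, Cald1, Tpm1 or Tpm2. A match describes letters in the window and not a bound site.

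Between the libraries, all 8 genes had a higher level in Vehicle than in Matrigel-only stromal cells. The highest ratios belonged to the smooth muscle actins and calponin, and the lowest to caldesmon and tropomyosin 1. By their point values, 7 of the 8 genes in Palo lay between the other libraries, and Tagln alone was highest in Palo. The summed level of each gene is given below as CPM, the UMIs of the gene scaled to a fixed total of 1000000 in all UMIs of the stromal cells in a library, and the quoted log2 ratios are between such sums.

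**Figure D1:**
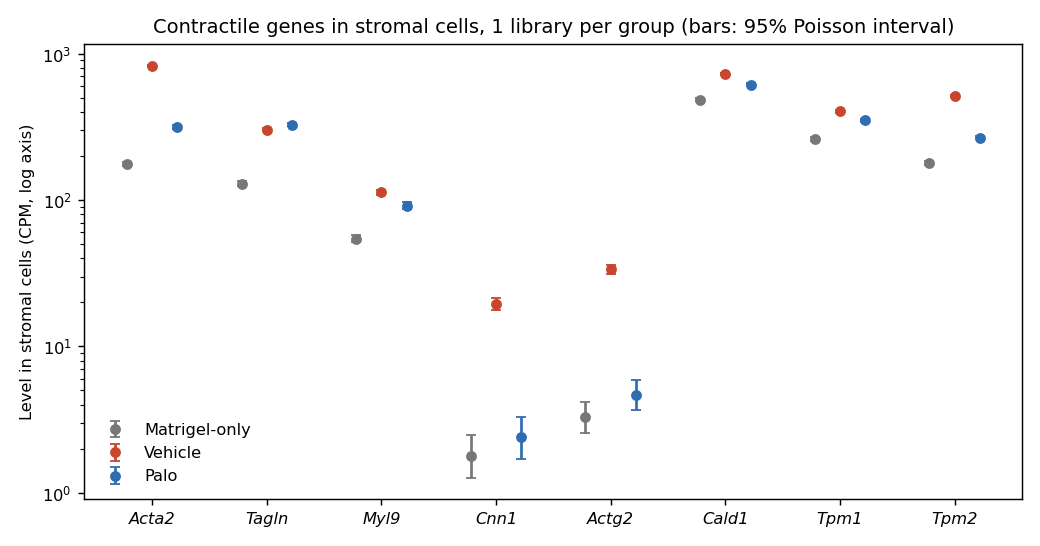
Level of each of the 8 genes in stromal cells of the 3 libraries, in CPM on a log axis, with exact 95% Poisson intervals as bars. Vehicle is above Matrigel-only for every gene, and Cnn1 and Actg2 in Palo lie near 2.40 and 4.67 CPM against 19.5 and 33.7 in Vehicle.

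Of the smooth muscle actins, Acta2 stood at 176 CPM in Matrigel-only (3537 UMIs), 828 CPM in Vehicle (19533 UMIs) and 316 CPM in Palo (5004 UMIs). Its log2 ratio was 2.23 (2.18 to 2.28) for Vehicle over Matrigel-only, -1.39 (-1.43 to -1.34) for Palo over Vehicle and 0.84 (0.78 to 0.90) for Palo over Matrigel-only. Palo thus lay between the other libraries and nearer to Matrigel-only. Actg2, the actin of visceral smooth muscle, was a minor transcript, with 66 UMIs (3.29 CPM) in Matrigel-only, 796 (33.7 CPM) in Vehicle and 74 (4.67 CPM) in Palo. Vehicle was 10.3-fold above Matrigel-only (log2 ratio 3.36, 2.99 to 3.74), and Palo over Vehicle was -2.85 (-3.22 to -2.51). The difference between Palo and Matrigel-only, 0.51 (0.01 to 1.01), was close to the counting error.

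Among the actin-binding proteins, Cnn1 followed Actg2. It had 36 UMIs (1.80 CPM) in Matrigel-only, 460 (19.5 CPM) in Vehicle and 38 (2.40 CPM) in Palo. The Vehicle level was 10.9-fold that of Matrigel-only (log2 ratio 3.44, 2.95 to 3.97), Palo over Vehicle was -3.02 (-3.54 to -2.54), and Palo and Matrigel-only did not differ beyond counting error (0.42, -0.28 to 1.12). Tagln had the other pattern: 129 CPM in Matrigel-only, 301 CPM in Vehicle and 327 CPM in Palo. Both rhBMP2 libraries were therefore more than 2-fold above Matrigel-only, with log2 ratios of 1.22 (1.16 to 1.29) and 1.34 (1.27 to 1.41). Palo over Vehicle was 0.12 (0.07 to 0.17). That last sign depended on which cells were counted: with the stromal limit at 5% of UMIs, and 5 CPM added, the Tagln ratio of Palo over Vehicle was -0.57. Cald1, which was found in most stromal cells, varied least, with 484 CPM in Matrigel-only, 729 CPM in Vehicle and 614 CPM in Palo. Its log2 ratio of Vehicle over Matrigel-only was 0.59 (0.56 to 0.63) and that of Palo over Vehicle was -0.25 (-0.28 to -0.21).

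The myosin light chain and the tropomyosins were spread between these patterns. Myl9 measured 54.5 CPM in Matrigel-only, and the rhBMP2 libraries had 113 CPM (Vehicle) and 91.5 CPM (Palo). Its log2 ratio was 1.05 (0.95 to 1.16) for Vehicle over Matrigel-only and -0.31 (-0.40 to -0.21) for Palo over Vehicle. Tpm1 measured 261, 403 and 350 CPM in the same order, and the ratios were 0.62 (0.58 to 0.67) and -0.20 (-0.25 to -0.15). The other tropomyosin differed more: Tpm2 measured 178 CPM in Matrigel-only, 511 CPM in Vehicle and 267 CPM in Palo. Its ratios were 1.52 (1.47 to 1.57) and -0.94 (-0.99 to -0.89).

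To read the 8 genes against all others, 5 CPM was added to each level, which pulls the ratios of scarce genes toward 0, and genes with at least 5 CPM in either library were counted. The median of the 8 log2 ratios of Vehicle over Matrigel-only was 1.34, and that of all 10755 genes was -0.04. The number at least 2-fold higher was 5 of 8, all but Myl9, Tpm1 and Cald1, where 3.68% of all genes were at least 2-fold higher and 7.04% at least 2-fold lower. Cnn1 and Actg2 reached 5 CPM in Vehicle alone, so both could be counted only as higher in Vehicle. Of the other 6, Acta2, Tagln and Tpm2 were at least 2-fold higher. The medians of the 8 include Cnn1 and Actg2. For Palo over Vehicle the median was -0.61, against 0.01 for all genes. Acta2, Actg2 and Cnn1 made 3 of 8 at least 2-fold lower, where 3.73% of all genes were lower and 4.4% higher by that much. Cnn1 and Actg2 again passed the limit through Vehicle alone, and of the other 6 genes only Acta2 was past 2-fold. For Palo over Matrigel-only, where Cnn1 and Actg2 were below the 5 CPM limit in both libraries, the median of the other 6 was 0.63, against -0.03. Only Tagln of the 8 was past 2-fold, where 0.277% of all genes were higher and 0.946% lower. The comparisons share libraries, so their values are not independent of each other.

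The share of cells with at least 1 UMI was also compared at equal depth. Acta2 was found in 14.6% of Matrigel-only stromal cells (13.1 to 16.3), 48.3% of Vehicle cells (45.6 to 51.1) and 27.8% of Palo cells (25.2 to 30.5). Without thinning these shares were 21.2%, 67.3% and 43.7%. Tpm2 was found in 24.1%, 57.4% and 37.5% of thinned cells, and Tagln in 11.8%, 31.5% and 25.2%. Tagln was thus found in fewer Palo than Vehicle cells although its summed level was as high. Myl9 was found in 12.9%, 18.3% and 18.5%, so that its intervals in Vehicle (16.2 to 20.5) and Palo (16.3 to 20.9) overlapped. Tpm1 was found in 45.4%, 60.7% and 54.0% and Cald1 in 68.5%, 82.3% and 78.9%. Cnn1 was found in 0.319%, 4.76% and 0.619% and Actg2 in 0.373%, 5.68% and 1.06%, each of the Matrigel-only and Palo values resting on few cells.

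Free RNA can place a UMI in a cell that does not make the transcript, so the same shares were taken in macrophage-marker cells, with median depths of 3090, 3507.5 and 4242.5 UMIs before thinning in Matrigel-only, Vehicle and Palo. Acta2 was found in 1.13%, 3.97% and 1.93% of them and Tagln in 1.39%, 1.58% and 2.28%. Tpm1, which leukocytes can also express, was found in 9.48%, 8.42% and 8.29%. For every gene the stromal share was above the macrophage-marker share of the same library, by the smallest factor for Tpm1. For Cnn1 the latter were 0.0%, 0.0478% and 0.0224% and for Actg2 0.0324%, 0.191% and 0.0448%. Stromal cells held 94.5% to 98.4% of the Acta2 UMIs of all cells that passed the quality limits.

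**Figure D2:**
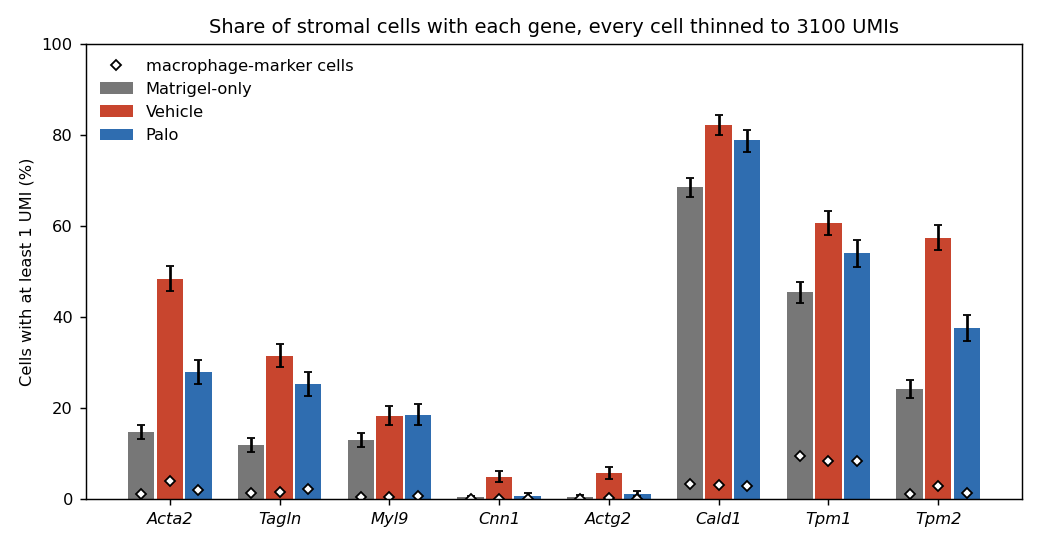
Share of stromal cells with at least 1 UMI of each gene (bars, percent) after thinning to 3100 UMIs, with exact 95% binomial intervals, and the same share in macrophage-marker cells (diamonds). Acta2 goes from 14.6% in Matrigel-only to 48.3% in Vehicle and 27.8% in Palo, and its diamonds stay at or under 3.97%.

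The transcripts were unevenly spread over cells. The tenth of stromal cells with the most Acta2 UMIs held 88.9% of them in Matrigel-only and a smaller part in the rhBMP2 libraries, 58.4% (Vehicle) and 70.4% (Palo). Of the 8 genes, the median number found in a thinned cell was 3 in Vehicle, 2 in Palo and 1 in Matrigel-only. At least 4 of them were found together in 222 Matrigel-only cells (11.8%, 10.4 to 13.4), in 487 Vehicle cells (37.4%, 34.7 to 40.1) and in 261 Palo cells (23.1%, 20.7 to 25.7). In macrophage-marker cells this was seen in 0 of 3090, 1 of 2091 and 4 of 4465 cells. The exact upper bound on 0 of 3090 was 0.119%. All 8 genes were found in 1 Matrigel-only cell, 8 Vehicle cells and 0 Palo cells.

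The stromal cells were next split by markers of cell state. Pi16 marks a widespread progenitor-like fibroblast of connective tissue, Sox9 encodes the transcription factor that sets cells on the cartilage lineage, and Acan is expressed once they make cartilage matrix. Each cell was placed in 1 set: Acan detected, Sox9 detected without Acan, Pi16 detected without both, or none of the 3 detected. In Matrigel-only the sets of Pi16, none and Sox9 held 1012, 579 and 493 cells. In Palo they held 312, 463 and 405 cells. Vehicle had few of the first kinds, with 80 Pi16 cells, 123 cells with none, 391 Sox9 cells and 779 Acan cells. Detection of a marker depends on depth, and the median depths of the Vehicle sets ran from 12259 UMIs with none detected to 18052 with Sox9.

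**Figure D3:**
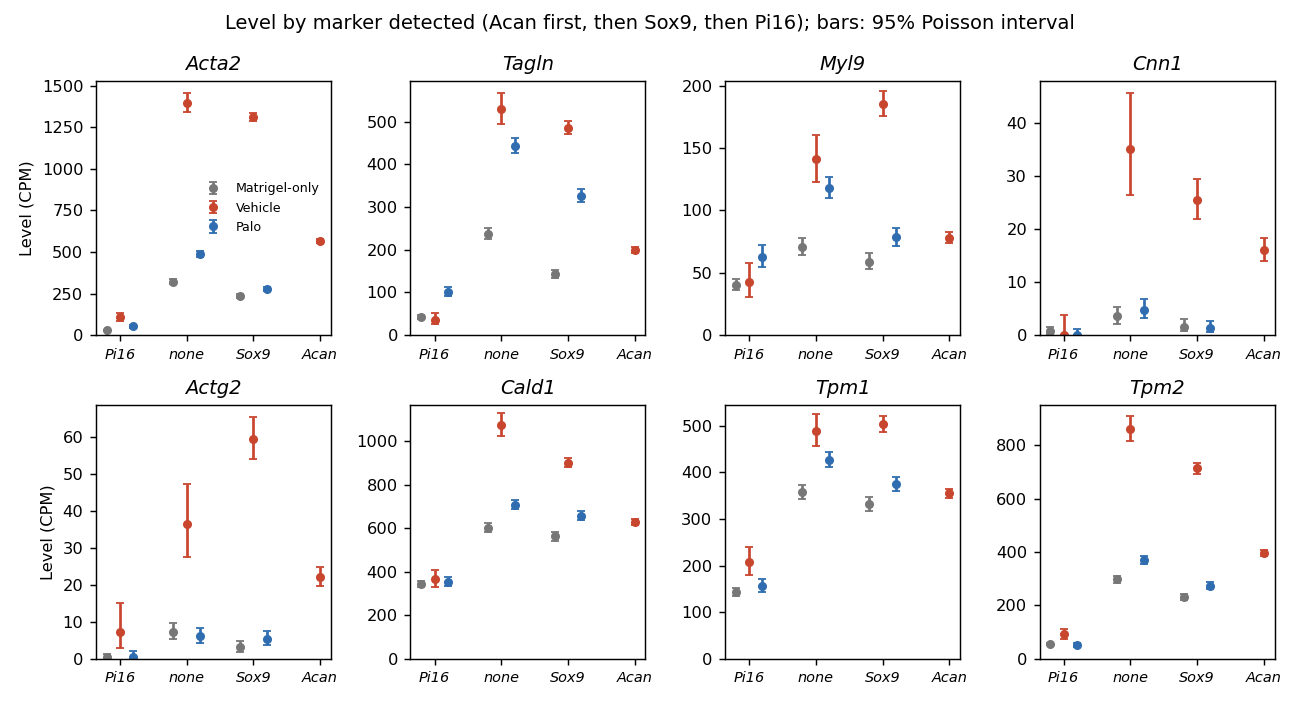
Level of each gene in CPM by the marker detected, in sets of at least 50 cells, for the 3 libraries, with exact 95% Poisson intervals. Within each library the Pi16 set is lowest for each gene, and the Acan set, present only in Vehicle, lies under the Vehicle cells with Sox9 but not Acan.

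Cells with Pi16 had the lowest contractile levels. Acta2 in the Pi16 set stood at 29.8 CPM in Matrigel-only, 107 CPM in Vehicle and 53.0 CPM in Palo, against 322, 1397 and 486 CPM in the set with none of the markers. At least 4 of the 8 genes were found in 2.35% of thinned Pi16 cells in Matrigel-only, 7.04% in Vehicle (5 of 71 cells) and 5.23% in Palo, against 22.0%, 63.3% and 34.0% of cells with none. When all cells with a Pi16 UMI were set against all others, regardless of Sox9 and Acan, the log2 ratio of Acta2 was -2.88 (-3.03 to -2.73) in Matrigel-only, -1.13 (-1.23 to -1.04) in Vehicle and -2.43 (-2.60 to -2.27) in Palo. Tpm2 gave -2.18, -1.37 and -2.25, whereas Cald1 gave -0.75, -0.72 and -0.74 and Myl9 -0.77, -0.85 and -0.57. The difference was deeper for Acta2 and Tpm2 than for Cald1 and Myl9 in each library by its point value, and in Vehicle the intervals of Acta2 and Myl9 (-1.09 to -0.62) overlapped.

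Over the genes, with 5 CPM added, the median ratio of cells with Pi16 was -1.14 in Matrigel-only, -1.03 in Palo and -0.96 in Vehicle, taken over the genes with at least 5 CPM in either set, 7, 7 and 8 of them (Cnn1 was under the limit in the first pair). In Matrigel-only 4 of 7 were at least 2-fold lower, and 2.14% of all genes were. In Vehicle 4 of 8 were, against 2.43%, and in Palo 4 of 7, against 1.38%. Actg2 in Matrigel-only and Palo reached 5 CPM only in the cells without Pi16, so it could be counted only as lower with Pi16. Exactly 1 Pi16 UMI was found in 206 of the 1153 Matrigel-only cells with Pi16, in 51 of 167 Vehicle cells and in 81 of 368 Palo cells. An estimate of free RNA took its part of all UMIs to be the same in stromal and macrophage-marker cells. It came to about 0.164, 0.178 and 0.132 Pi16 UMIs in a stromal cell of median depth. Stromal cells were deeper, so a fixed number of free UMIs per cell would give less. At 2 UMIs or more the Acta2 differences and the medians over the genes were larger. The Acta2 ratios were then -5.21, -3.63 and -3.36, and Acta2 in the Pi16 set measured 6.48 CPM in Matrigel-only, 37.4 CPM in Vehicle and 25.2 CPM in Palo. Macrophage-marker cells held 4.25, 13.7 and 7.25 CPM of Acta2, and the Matrigel-only value lay near theirs. Those cells were shallower, so how much free RNA adds to the CPM of stromal cells was not known from them. The medians over the genes were -1.38, -2.40 and -1.45. In Palo the ratios of Myl9 (-0.57 at 1 UMI, -0.56 at 2) and Actg2 (-3.68 and -3.08, from 2 UMIs) did not become larger. In Matrigel-only 5 of 7 were at least 2-fold lower (3.78% of all genes), in Vehicle 8 of 8 (5.95%) and in Palo 4 of 7 (3.49%). At this split Actg2 in each library, and Cnn1 in Vehicle, reached 5 CPM only in the other stromal cells. They too could be counted only as lower with Pi16.

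Along the cartilage markers in Vehicle, the contractile levels were high in cells with Sox9 and no Acan and lower in cells with Acan. Acta2, Tagln, Tpm2, Cnn1 and Cald1 were higher still in cells with none of the markers. Myl9, Tpm1 and Actg2 were lower there than with Sox9 and no Acan. For Tagln, Cnn1 and Tpm1 the intervals of these sets overlapped. Acta2 stood at 1312 CPM with Sox9 and no Acan and at 566 CPM with Acan, a log2 ratio of -1.21 (-1.26 to -1.17). Tagln measured 486 and 199 CPM (-1.29, -1.36 to -1.22), Myl9 185 and 78.1 CPM (-1.25, -1.36 to -1.13), and Actg2 59.4 and 22.1 CPM (-1.42, -1.64 to -1.21). Tpm1, Cald1, Cnn1 and Tpm2 differed less, with ratios of -0.50, -0.52, -0.67 and -0.85. The median over the 8 genes with 5 CPM added was -1.02, and 4 of 8 were at least 2-fold lower, as were 1.64% of all genes. At least 4 of the 8 genes were found in 49.6% of the thinned Sox9 cells (44.5 to 54.7) and in 31.0% of the Acan cells (27.7 to 34.4).

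The lower levels were mainly in cells with 10 or more Acan UMIs. Acta2 stood at 1206 CPM in the 594 cells with 0 Acan UMIs, 1172 CPM in the 197 cells with 1 to 9, 464 CPM in the 361 cells with 10 to 49, and 279 CPM in the 221 cells with 50 or more. The Acta2 intervals of the first pair, 1184 to 1228 and 1135 to 1210, overlapped, whereas those of Tpm2 and Cald1 did not. On the same assumption, the level in Vehicle macrophage-marker cells would put about 0.163 Acan UMIs of free RNA in a stromal cell of median depth. That value may be too high, because the stromal cells were deeper. A low Acan count therefore does not by itself show that a cell makes Acan, and the cells with 1 to 9 may be mixed. The cells with 0 Acan UMIs included the 80 cells of the Pi16 set, at 107 CPM of Acta2. Their other members, the 391 Sox9 cells and the 123 cells with none, stood at 1312 and 1397 CPM, above the cells with 1 to 9. Pi16 itself measured 194 CPM at 0 Acan UMIs and 76.1 CPM at 1 to 9. Tagln followed with 449, 420, 163 and 92.6 CPM and Tpm2 with 676, 626, 343 and 308 CPM. Col2a1, the cartilage collagen, measured 24.2, 93.7, 1697 and 5655 CPM over the same cells. Cald1, with 876, 774, 622 and 531 CPM, kept more of its level than Acta2. At 50 Acan UMIs or more, the Acta2 level was above the 176 CPM of all Matrigel-only stromal cells, among which were 1012 Pi16 cells at 29.8 CPM. It was also above the 236 CPM of the Matrigel-only Sox9 set, but below the 322 CPM of Matrigel-only cells with none of the markers.

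**Figure D4:**
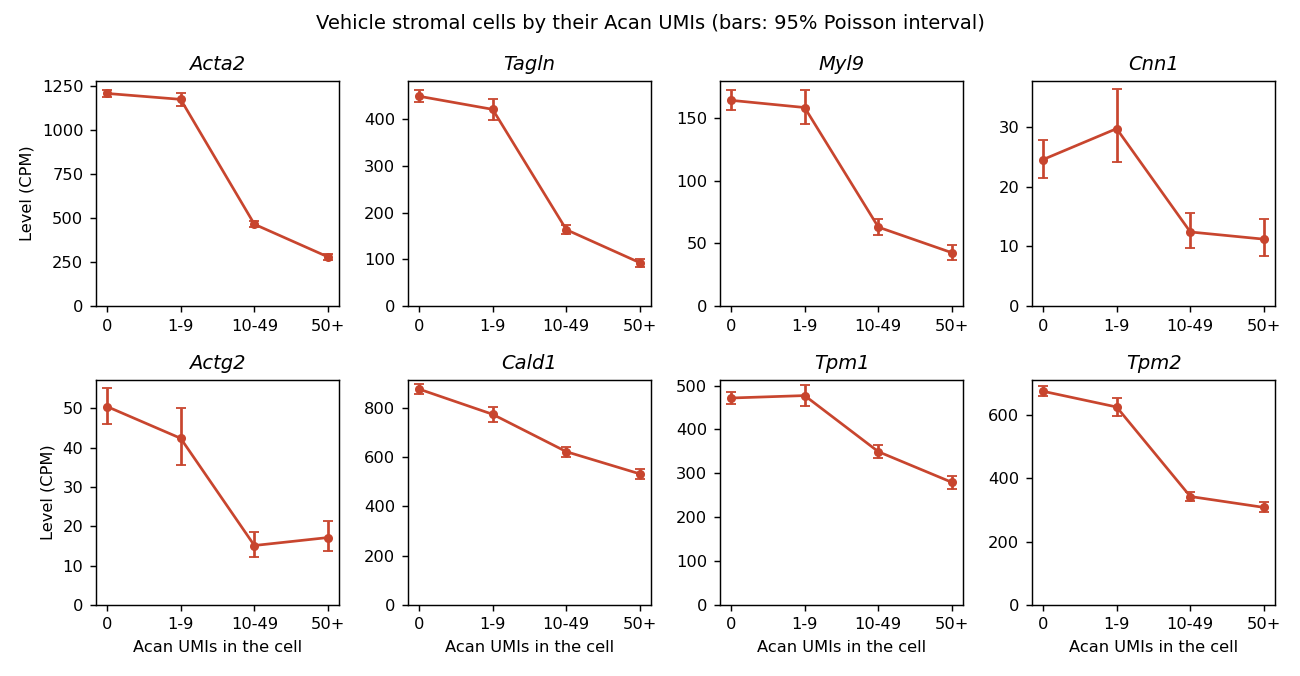
Level of each gene in CPM in Vehicle stromal cells with 0, 1 to 9, 10 to 49 and 50 or more Acan UMIs, with exact 95% Poisson intervals. Acta2 goes from 1206 to 1172, 464 and 279 CPM, and Cald1 from 876 to 531 CPM.

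Sox9 detection on its own, against all other stromal cells, went with smaller differences. With 5 CPM added, the median log2 ratio was 0.41 in Matrigel-only, over the 6 genes with at least 5 CPM in either set, 0.07 over 7 genes in Palo and -0.12 over all 8 in Vehicle. The Vehicle median turned to 0.45 with the stromal limit at 5% of UMIs, which left 702 of the 1373 cells. In Vehicle most cells with Acan also count as Sox9-detected in this split. In Matrigel-only the cells without Sox9 included the 1012 cells of the Pi16 set.

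Differences of Vehicle from both other libraries remained among cells with Sox9 and no Acan and among cells with none of the markers. Palo and Matrigel-only differed less there. With 5 CPM added, the median of Palo over Matrigel-only over all 8 genes was 0.23 and 0.28 in these sets, against 0.49 in all stromal cells. Among cells with Sox9 and no Acan, Acta2 measured 236 CPM in Matrigel-only, 1312 CPM in Vehicle and 277 CPM in Palo, with log2 ratios of 2.47 (2.39 to 2.56) for Vehicle over Matrigel-only and -2.24 (-2.32 to -2.17) for Palo over Vehicle. The actins and calponin differed most: Actg2 measured 3.10, 59.4 and 5.39 CPM and Cnn1 1.55, 25.5 and 1.31 CPM. With 5 CPM added the median of the 8 ratios was 1.67 for Vehicle over Matrigel-only, with 6 of 8 at least 2-fold higher (1.86% of all genes), and -1.28 for Palo over Vehicle, with 5 of 8 at least 2-fold lower (2.52% of all genes). In cells with none of the markers the medians were 1.33, with 5 of 8 higher (2.29% of all genes), and -0.90, with 4 of 8 lower (2.5% of all genes). Cnn1 reached 5 CPM in Vehicle alone in both sets. Actg2 in the Sox9 set was under it in Matrigel-only. In those comparisons they could be counted only as higher in Vehicle. Tagln was lower in Palo than in Vehicle in both sets, with ratios of -0.57 (-0.65 to -0.49) and -0.26 (-0.37 to -0.14). When the Pi16, none and Sox9 sets were combined in the proportions of Matrigel-only, the Tagln level in Vehicle came to 313 CPM and that in Palo to 268 CPM.

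In the Pi16 set the genes were split. Tpm2 (0.74 and -0.84), Tpm1 (0.54 and -0.41) and Acta2 (1.85 and -1.02) had the same signs of Vehicle over Matrigel-only and Palo over Vehicle as in the other sets. With markers counted from 2 UMIs, Tpm1 (0.61 and -0.61) and Acta2 (2.53 and -0.57) kept these signs. Tpm2 did not, with -0.11 (-0.66 to 0.40) and 0.25 (-0.32 to 0.85). Acta2 in macrophage-marker cells had the same order of libraries, at 4.25, 13.7 and 7.25 CPM in Matrigel-only, Vehicle and Palo. Actg2 had 5, 7 and 2 UMIs at the 1 UMI split. Tagln in Pi16 cells measured 42.1 CPM in Matrigel-only (349 UMIs), 36.5 CPM in Vehicle (35 UMIs) and 102 CPM in Palo (334 UMIs). Palo over Vehicle was thus 1.48 (0.97 to 2.03) on the log2 scale. Myl9 measured 40.0, 42.7 and 62.8 CPM. Cald1 measured 344, 368 and 355 CPM with overlapping intervals. Cnn1 had 6, 0 and 0 UMIs in these sets, which gives no basis for a comparison.

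Detection of the genes in the same cell was compared with the product of their single shares, a ratio of 1 meaning no association. To keep the Pi16 set from producing association by itself, cells without Pi16 were taken, which left 845 Matrigel-only, 1147 Vehicle and 787 Palo cells. In this order Acta2 and Tagln were found together in 13.1%, 28.4% and 19.6% of them, which was 2.34, 1.58 and 1.80 times the product. Of the thinned cells with Tagln, 63.8%, 83.0% and 64.7% also had Acta2. Over all stromal cells the ratios for this pair were 4.00, 1.70 and 2.16. Acta2 was most widespread in Vehicle, which lowers the highest ratio possible there, so these ratios do not rank the libraries. The Vehicle cells without Pi16 still included those with Acan. Tagln and Myl9 gave 2.39, 2.22 and 1.99 without Pi16 cells. Tpm1 and Cald1, found in most cells, gave 1.04, 0.997 and 1.02, a ratio that cannot go far above 1 for genes this widespread. Cnn1 and Actg2 were found together in 1, 15 and 1 cells. The Vehicle ratio for that pair was 4.03, and the other libraries held too few cells to give one.

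**Figure D5:**
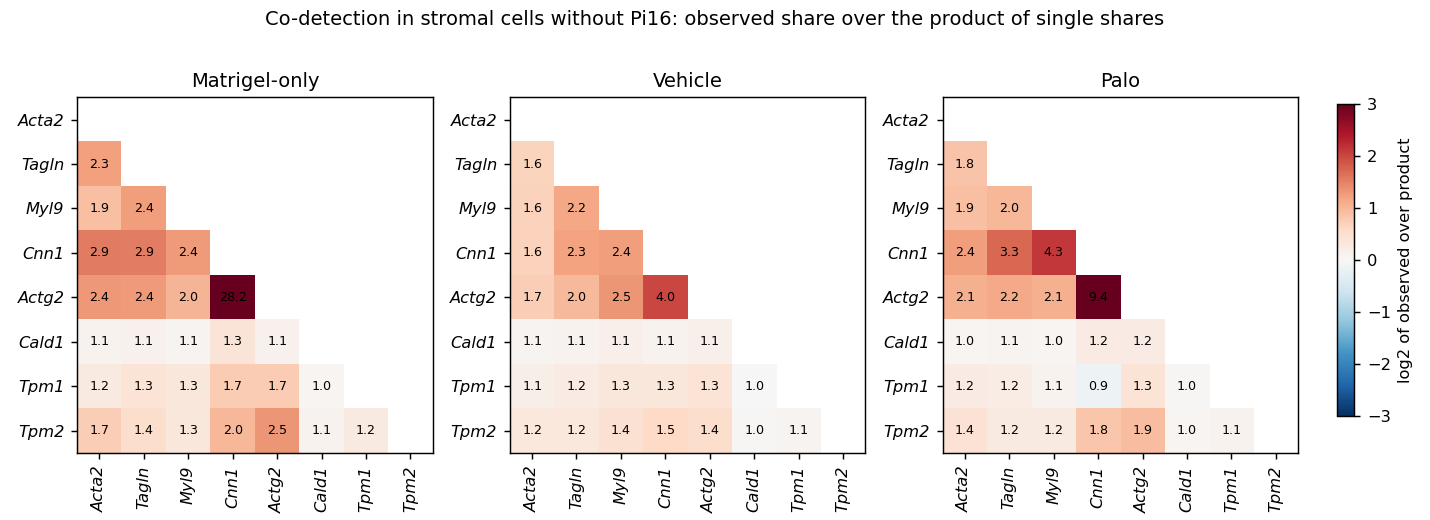
Share of thinned stromal cells without Pi16 in which both genes of a pair were found, divided by the product of their single shares, for the 3 libraries (color, log2 of the ratio, numbers, the ratio). Acta2 and Tagln stand at 2.3, 1.6 and 1.8, and Tpm1 and Cald1 at 1.0 in each library, and the values of Cnn1 with Actg2 in Matrigel-only and Palo rest on 1 cell each.

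Genes whose counts went with the number of contractile genes in a cell were ranked. Across 2643 genes with at least 50 CPM in every library, the lowest of the 3 within-library Pearson r values was highest for the non-muscle actins Actg1 and Actb (0.41 each), for Cnn2 (0.40), a calponin of non-muscle cells, and for Lrrc15 (0.39), a membrane protein of myofibroblasts. Myl6, Thbs1, Flna, Col8a1, Csrp1 and Actn1 followed, from 0.32 to 0.29. At the opposite end, the weakest of the 3 negative r values was -0.44 for Dcn, the matrix proteoglycan decorin and a gene of the stromal definition, and -0.41 for Ly6a, a surface antigen of progenitor cells. These are descriptions over 1878, 1303 and 1130 thinned cells that share a library and a depth.

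The close relatives of the 8 genes differed less between libraries. Of 13 other actins, calponins, tropomyosins, transgelins and myosin light chains, 10 reached 5 CPM, and 0 were at least 2-fold higher in Vehicle than in Matrigel-only, where 3.68% of all genes were. Their median log2 ratio, with 5 CPM added, was 0.28, and all but Actb and Myl12b had a ratio above 0. Myl12b was at least 2-fold lower (121 and 42.1 CPM), as were 7.04% of all genes. Actb measured 4685, 4613 and 4403 CPM and Cnn2 170, 223 and 227 CPM in Matrigel-only, Vehicle and Palo. Cnn3 and Tpm3 had the highest Vehicle over Matrigel-only ratios of the 10 that reached 5 CPM, 0.57 and 0.52, close to those of Cald1 and Tpm1. Under that limit, Tagln3 (4 and 36 UMIs) and Acta1 (9 and 26 UMIs) had higher ratios, 2.94 (1.46 to 4.89) and 1.30 (0.16 to 2.57). In Palo over Vehicle 1 of 10 was at least 2-fold higher, again Myl12b, where 4.4% of all genes were.

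Of 7 genes for serum response factor, its cofactors and the YAP and TEAD factors, 6 reached 5 CPM, and 0 were past 2-fold in any of the comparisons. Of all genes 3.68% were higher and 7.04% lower by that much in Vehicle over Matrigel-only. In Palo over Vehicle 4.4% were higher and 3.73% lower, and in Palo over Matrigel-only 0.277% and 0.946%. Srf measured 36.4 CPM in Matrigel-only, 38.2 CPM in Vehicle and 39.2 CPM in Palo. Yap1 had the highest and Mkl2 the lowest ratio of Vehicle over Matrigel-only, 0.20 and -0.41 on the log2 scale. Myocd, the cofactor that defines smooth muscle, had 8, 7 and 3 UMIs.

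Adhesion and matrix genes linked to myofibroblasts were mixed. Of 15 adhesion and stress fiber genes, 1 was past 2-fold in Vehicle over Matrigel-only, the focal adhesion protein gene Zyx, which was lower (341 and 154 CPM). Of all genes 7.04% were lower and 3.68% higher by that much in this comparison. Actn1, with 159 and 306 CPM, and Csrp2, with 666 and 1163 CPM, had the highest ratios of this list, and Filip1l (113 and 59.7 CPM) the lowest after Zyx. In Palo over Vehicle 1 of 15 was past 2-fold, Zyx, at 334 CPM in Palo, where 4.4% of all genes were higher and 3.73% lower. Of 10 matrix and surface genes of myofibroblasts, Tnc (714 and 2240 CPM) and Col12a1 (544 and 1676 CPM) were at least 2-fold higher in Vehicle than in Matrigel-only, and Fap was lower (125 and 24.7 CPM). In Palo over Vehicle, Fap and Lrrc15 were higher and Tnc was lower, with the largest ratio for Fap (1.76 on the log2 scale). Palo over Matrigel-only gave 0 of 15 and 0 of 10 past 2-fold, where 0.277% of all genes were higher and 0.946% lower. Col12a1 and Col8a1 had its highest ratios, 0.82 and 0.72, and Fap its lowest, -0.59.

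Markers of mature smooth muscle and of the mural cells of vessels were examined beside these results. Of 10 late smooth muscle genes, 4 reached 5 CPM in the Vehicle over Matrigel-only comparison and 2 were at least 2-fold higher, and the summed level of the list was 118 CPM in Matrigel-only, 241 CPM in Vehicle and 126 CPM in Palo. Smtn made up most of it, with 91.4, 165 and 97.4 CPM. Several genes of the list were at or near 0. Myh11 had 2, 8 and 3 UMIs in all stromal cells of Matrigel-only, Vehicle and Palo, Kcnmb1 0, 2 and 0, and Lmod1 4, 21 and 2. The 2 genes at least 2-fold higher in Vehicle were Des, with 2.49, 19.7 and 8.34 CPM, and Mylk, with 11.4, 35.4 and 10.2 CPM. Of all genes 3.68% were higher by that much. In Palo over Vehicle Mylk was the 1 gene of 4 at least 2-fold lower, where 3.73% of all genes were.

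The summed level of 10 mural markers was 186 CPM in Matrigel-only, 267 CPM in Vehicle and 183 CPM in Palo, highest in Vehicle. Pdgfrb made up most of it, with 122, 148 and 127 CPM. Higd1b had 0 UMIs in each library and Rgs5 had 12, 6 and 9. Mcam had 5, 92 and 18 UMIs and Notch3 69, 140 and 64. The ratio of Vehicle over Matrigel-only was at least 2-fold higher for 2 of 6 mural genes and at least 2-fold lower for 2. Of all genes 3.68% were higher and 7.04% lower by that much. Cspg4 (11.3, 79.6 and 15.3 CPM) was higher and Kcnj8 (30.1, 6.74 and 18.3 CPM) lower in Vehicle. Cells were also left out by a separate list of mural markers, whose genes are not given here. Without the 137, 67 and 68 cells that held at least 2 markers of that list, the median ratios of the 8 genes were 1.26 for Vehicle over Matrigel-only and -0.55 for Palo over Vehicle. Endothelial and skeletal muscle lists summed to 15.1 to 26.3 and 4.64 to 7.71 CPM, with Pecam1 at 15, 19 and 12 UMIs and Myh4 at 0 in each library. Kdr was 1 of 3 endothelial genes with at least 5 CPM and was at least 2-fold lower in Vehicle than in Matrigel-only and higher in Palo than in Vehicle (17.8, 2.54 and 11.6 CPM). Of all genes, 7.04% and 4.4% differed by that much in those directions. Macrophage genes summed to 225, 75.3 and 170 CPM in the stromal cells and were lower in Vehicle. Their part in the results was not tested. Cells under the stromal limit with at least 4 of the 8 genes numbered 3 of 6643, 19 of 4105 and 17 of 6113.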

How the data were processed

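UMI counts per gene and cell barcode were deposited as 1 matrix per library. The authors made these counts with Cell Ranger 3.0.2 on mm10 and named Seurat 3 for later steps, per the labels. The counts are not normalized. The 3 libraries held 9249, 6065 and 7905 barcodes and 44252421, 46317250 and 46901673 UMIs (Matrigel-only, Vehicle, Palo). Following the authors' limits, cells with 200 to 6000 genes and at most 5% mitochondrial UMIs were kept, and no further doublet step was applied. Macrophage-marker cells had at least 2 UMIs of Cd68, Adgre1, Csf1r, C1qa and Ptprc and lay under the stromal limit.

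UMIs were summed over cells, scaled to CPM, and compared as ratios with conditional binomial intervals. Shares used cells thinned to 3100 UMIs. All 8 genes were described. From each other list, the genes past 2-fold were counted among those with at least 5 CPM, and up to 2 per direction with at least 20 CPM were named. The list of myosin and its regulators is not reported here. Genes singled out beyond this rule, such as Myh11, Rgs5, Myocd, Des, Srf, Actb, Col2a1 and the genes with an r, were chosen after their values were seen, apart from the first 10 by r. Python 3.11.15, numpy 2.4.6, scipy 1.17.1, pandas 2.3.3, scanpy 1.11.5 (Scrublet, as an alternative) and edgeR 4.0.16 in R 4.3.3 (TMM factors, as an alternative) were used, and the scripts were checked on simulated data. Repeated symbols numbered 35, none among the 8 genes. Reads that match more than 1 actin or tropomyosin gene cannot be assigned by such counting, and Tagln and Cald1 overlap genes on the other strand. The genes and lists were chosen with earlier results of these data known.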

Additional observations from a re-analysis of the deposited data

Results flagged for a closer look

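Some members differed in direction between libraries or between sets of cells, with counting intervals on opposite sides of 0. With 1 library per group the difference was not tested. Cells with Sox9, against all other stromal cells, had more Acta2 in Matrigel-only (log2 ratio 0.64, 0.54 to 0.73) but less in Palo (-0.26, -0.35 to -0.18) and in Vehicle (-0.24, -0.29 to -0.18). The same contrast gave 0.21 in Matrigel-only and -0.23 in Vehicle for Tagln, and 0.57 and -0.25 for Tpm2. For Cald1 it gave 0.32 in Matrigel-only, 0.16 in Palo and -0.19 in Vehicle, the library in which 779 stromal cells had Acan. The Matrigel-only cells without Sox9 included 1012 Pi16 cells at 29.8 CPM of Acta2. Against cells with none of the markers, cells with Sox9 and no Acan had less Acta2 in each library. The Acta2 levels were 236 against 322 CPM in Matrigel-only, 1312 against 1397 in Vehicle and 277 against 486 in Palo. Tagln, Tpm2 and Cald1 were also lower in each library. Myl9, Tpm1 and Actg2 were higher in Vehicle. In that library the intervals of both sets overlapped for Tagln and Tpm1.

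Tagln and Myl9 in Palo over Vehicle depended on the set of cells. For Tagln the ratio was 1.48 in cells with Pi16, -0.57 in cells with Sox9 and no Acan, and -0.26 in cells with none of the markers. For Myl9 these were 0.55, -1.24 and -0.26. The Pi16 values rest on 35 Tagln and 41 Myl9 UMIs in Vehicle. With Pi16 set at 2 UMIs or more, chosen after the data were seen, they were 2.81 for Tagln and 1.45 for Myl9, from 11 and 31 Vehicle UMIs. The Vehicle Tagln level was then 8.58 CPM, near the 5.42 CPM of Vehicle macrophage-marker cells. Those had a median depth of 3507.5 UMIs, against 17114 in Vehicle stromal cells.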

How the results depend on the processing

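No paired analysis was possible because each group had 1 library, and for the same reason no library could be left out. The median ratio of the 8 genes kept its sign under every alternative run, except for the Sox9 split in Vehicle. With the stromal limit at 5% of UMIs the medians were 1.80 for Vehicle over Matrigel-only, -1.13 for Palo over Vehicle, and, within Vehicle, -0.49 for Acan, 0.45 for Sox9 (reversed) and -1.31 for Pi16. With cells weighted equally they were 1.59 for Vehicle over Matrigel-only, -0.66 for Acan, -0.0038 for Sox9 and -1.31 for Pi16. TMM scaling gave 1.41 for Vehicle over Matrigel-only. Splitting Vehicle on thinned counts gave -1.13 for Acan, -0.56 for Sox9 and -2.43 for Pi16. Splitting at 2 UMIs gave -1.19 for Acan and -2.40 for Pi16, and at 10 UMIs, an alternative added after seeing the data, -1.18, -0.63 and -2.40. With Pi16, Sox9 and unmarked cells in the Matrigel-only proportions, also added later, Palo over Vehicle was -0.82 and Palo over Matrigel-only 0.22 (against 0.49, both over all 8 genes). In Palo over Matrigel-only, 286 of all genes were past 2-fold with 1 CPM added, against 128 with 5 CPM. At 5000 UMIs the share of cells with at least 4 of the 8 genes was 18.1%, 50.9% and 34.3% in Matrigel-only, Vehicle and Palo. Single genes reversed at the 5% limit were Tagln in Palo over Vehicle (-0.57) and Cnn1 in Palo over Matrigel-only (-0.16), and in the Matrigel-only proportions the same pair (-0.22 and -0.0033). Causes were not tested. Cnn1 and Actg2 outside Vehicle rest on 36 to 74 UMIs.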

Other observations

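Genes used to check the stromal label were split. Of these 10, 4 (Pdgfra, Fstl1, Mfap5 and Thy1) were at least 2-fold lower in Vehicle than in Matrigel-only, where 7.04% of all genes were, and at least 2-fold higher in Palo than in Vehicle, where 4.4% were. Prrx1 was also lower in Vehicle, by slightly less than 2-fold, at 725, 373 and 734 CPM in Matrigel-only, Vehicle and Palo. Col5a1, Col6a1, Serpinf1, Pcolce and Lox were higher in Vehicle than in the other libraries, by less than 2-fold, as Lox at 1178, 1560 and 1149 CPM. Thy1 and Mfap5 had the largest ratios. Thy1, a surface antigen of fibroblasts, measured 681 CPM in Matrigel-only, 128 CPM in Vehicle and 595 CPM in Palo, and Mfap5, a microfibril protein, 2134, 456 and 1953 CPM. For Palo over Matrigel-only, 0 of the 10 were past 2-fold, where 0.277% of all genes were higher and 0.946% lower. Several genes whose counts ran against the number of contractile genes in a cell had the same order. Cd34 measured 916, 113 and 509 CPM, Ly6c1 821, 154 and 414 CPM, and Clec3b 906, 77.4 and 489 CPM, with the weakest of their 3 negative r values at -0.30, -0.31 and -0.28. These genes were chosen after their values were seen.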
